A study of Macaca mulatta with 20 samples.

Results

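The genes described here make, sense or degrade prostaglandins and leukotrienes. They are 10 named genes (ALOX5, ALOX5AP, LTA4H, LTB4R, PTGS1, PTGS2, TBXAS1, PTGER2, PTGER4 and HPGD), grouped by their place in the pathway, with earlier results of these data known, and followed in the blood of rhesus macaques after irradiation of the thorax. A gene counted as measured when at least 1 of its probes was well above background on at least 5 of the 20 arrays. This held for 9 of the 10 genes, with 11 of their 13 probes, among 19961 of 34127 probes on the array. The HPGD probe was well above background on 1 of 20 arrays, and HPGD was therefore not tested.

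Each of the 4 groups holds 5 arrays of whole blood RNA depleted of globin transcripts. The groups are pre-irradiation, with no dose given, and 2, 5 and 30 days after 10 Gy of X-rays to the whole thorax. All animals were male Macaca mulatta of Chinese origin, with no modified gene. Blood was taken from 8 animals per the labels, and the methods state that RNA of different animals was pooled on 1 occasion, which the labels do not place. Ages are not in the labels, and the methods give them only as a range and a mean over the animals of the study. Steroids and antibiotics were not given, but ketoprofen, a cyclooxygenase inhibitor, was given to animals as needed, and no label says which animals received it. There was no sham-irradiated group, so time and irradiation cannot be told apart.

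Prostaglandins and leukotrienes are short-lived lipid signals cut from the arachidonic acid of cell membranes. The 5-lipoxygenase branch, used above all by neutrophils and monocytes, makes leukotriene B4, which attracts neutrophils. The cyclooxygenase branch makes prostaglandins and, in platelets, thromboxane, which makes platelets aggregate. Each product acts on its own receptors, and prostaglandin E2 is ended by the dehydrogenase that HPGD encodes.

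The probes are 60 bases long and were designed on human transcripts. Those of 3 members are shown because the results below rest on them and they lie in coding sequence. They are written in the sense direction, as the array files give them, with positions on the human build hg19.
ALOX5AP, chr13:31338155-31338214, plus strand: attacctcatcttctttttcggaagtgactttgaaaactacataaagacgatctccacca
TBXAS1, chr7:139706924-139715523, plus strand: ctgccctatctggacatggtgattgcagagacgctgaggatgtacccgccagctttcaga
LTA4H, chr12:96394767-96394826, minus strand: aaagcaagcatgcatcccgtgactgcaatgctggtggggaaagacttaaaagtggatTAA
Capitals mark the stop codon at the end of the LTA4H probe. The TBXAS1 probe covers 8600 bases of the genome because it crosses an intron. How far the macaque sequences depart from these human ones was not examined. The other main probes lie at chr10:45941417-45941476 (ALOX5), chr14:24785103-24785162 (LTB4R), chr9:125155052-125155111 (PTGS1), chr1:186641469-186641528 (PTGS2), chr14:52794430-52794489 (PTGER2) and chr5:40693563-40693622 (PTGER4).

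Values below are log2 processed signals minus the 75th percentile of their array. They can be compared between arrays for 1 gene but not between genes, because probes differ in brightness. Replicates 1 to 5 of each group were taken as pairs. A probe was called in limma at an unadjusted p under 0.005 with a Benjamini-Hochberg adjusted p under 10% over all probes tested. Genes that reached an unadjusted p under 0.05 without being called are given with their values only. The share of all probes with every pair moving 1 way is given against pre-irradiation only, not between later days.

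No member was called in any of the 6 comparisons. Few probes of any kind were: 0.0551% at day 2, 0% at day 5 and 0.02% at day 30 against pre-irradiation, 0% between days 2 and 5, 0% between days 5 and 30 and 0.0551% between days 2 and 30. The lowest adjusted p of a member was 0.149, for PTGS2 at day 30. At an unadjusted p under 0.05, 5 of 9 members were higher at day 2, where 8.91% of all probes were. At day 5 it was 2 of 9 against 7.2%, and at day 30 it was 4 of 9 against 8.58%. One member, TBXAS1, was lower at day 30, where 8.97% of all probes were. The median log2 change of the 9 members was 0.90 at day 2, 0.35 at day 5 and 0.75 at day 30. The median of all probes stayed near 0 on each day (-0.02, 0.02 and 0.01). All 3 days share the pre-irradiation arrays, so these counts are not independent of each other.

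**Figure D1:**
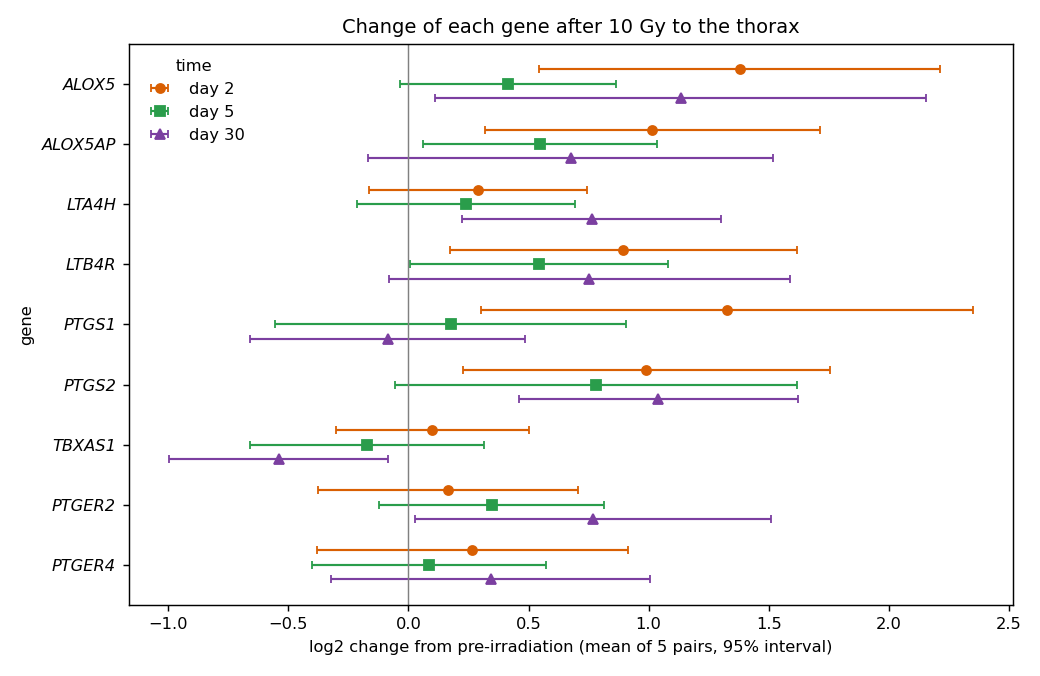
Log2 change from pre-irradiation on the horizontal axis for the 9 measured genes, as the mean of 5 pairs with its 95% interval at day 2 (circles), day 5 (squares) and day 30 (triangles). At day 2 the intervals of ALOX5, ALOX5AP, LTB4R, PTGS1 and PTGS2 lie above 0, and at day 5 those of ALOX5AP and LTB4R. At day 30 the intervals of ALOX5, LTA4H, PTGS2 and PTGER2 lie above 0 and the interval of TBXAS1 lies below 0.

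ALOX5 encodes 5-lipoxygenase, the enzyme that commits arachidonic acid to leukotrienes. In replicates 1 to 5 its log2 level was 0.55, -0.06, 0.07, 0.09 and 1.45 before irradiation. It was 2.51, -0.02, 2.82, 1.54 and 2.14 at day 2. All pairs were higher at day 2, replicate 2 by 0.04 only, and 4 of 5 day 2 arrays lay above every pre-irradiation array. The log2 change was 1.38 (SE 0.36, n = 5 pairs; 2.60-fold, 95% interval 1.46 to 4.64), with an unadjusted p of 0.00525 and an adjusted p of 0.189 by limma. At day 5 the levels were 1.56, 0.67, 0.35, 0.25 and 1.35, overlapping widely with those before irradiation (log2 change 0.42, SE 0.19, unadjusted p = 0.0659 by limma, and 0.27 without replicate 1). At day 30 they were 4.07, 0.71, 0.43, 0.98 and 1.58. Each pair was again higher, and replicate 1 stood far above the others with a change of 3.52. The mean log2 change at day 30 was 1.13 (SE 0.45, unadjusted p = 0.0336, adjusted p = 0.247 by limma). Without replicate 1 it was 0.54 (unadjusted p = 0.0291 by limma).

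ALOX5AP encodes the membrane protein that hands arachidonic acid to 5-lipoxygenase. Its log2 level was 4.45, 4.74, 4.86, 4.10 and 5.30 before irradiation and 6.30, 4.61, 6.65, 5.18 and 5.78 at day 2. As for ALOX5, replicates 1, 3 and 4 moved most and replicate 2 hardly at all. The log2 change at day 2 was 1.01 (SE 0.30, n = 5 pairs, unadjusted p = 0.0101, adjusted p = 0.217 by limma), with 4 of 5 pairs higher. At day 5 the levels were 5.89, 5.02, 5.03, 4.58 and 5.67, with every pair higher and a log2 change of 0.55 (SE 0.21, unadjusted p = 0.0325 by limma), which was 0.32 without replicate 1. At day 30 they were 6.89, 5.05, 4.41, 4.98 and 5.52, and the log2 change of 0.68 had a 95% interval from -0.17 to 1.52 and was 0.23 without replicate 1. Over all probes, 7% had every pair higher at day 5.

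LTB4R encodes the high-affinity receptor for leukotriene B4, which guides neutrophils. Its log2 level was 0.16, 0.19, -0.36, -1.10 and 0.57 before irradiation. It was 2.08, 0.07, 1.11, 0.03 and 0.64 at day 2 and 1.69, 0.15, 0.11, -0.58 and 0.82 at day 5. Replicate 1 was the highest array of each post-irradiation group, and the groups overlapped. Its log2 change was 0.90 at day 2 (SE 0.31, unadjusted p = 0.0210, adjusted p = 0.261 by limma) and 0.54 at day 5 (SE 0.23, unadjusted p = 0.0478 by limma), the latter 0.30 without replicate 1 (unadjusted p = 0.119 by limma). At day 30 the levels were 2.54, 0.62, -0.66, 0.15 and 0.58. The log2 change there was 0.75, with a 95% interval from -0.08 to 1.59, and without replicate 1 it was 0.35.

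LTA4H encodes the hydrolase that turns leukotriene A4 into leukotriene B4. Its main probe read 4.50, 4.59, 5.16, 4.08 and 5.01 before irradiation and 5.80, 5.58, 5.94, 5.04 and 4.79 at day 30. At day 30, 3 of 5 arrays lay above every pre-irradiation array and replicate 5 was lower than before. The log2 change was 0.76 (SE 0.24, n = 5 pairs, unadjusted p = 0.0110, adjusted p = 0.183 by limma). At day 2 it was 0.29 (95% interval -0.17 to 0.74) and at day 5 it was 0.24 (95% interval -0.21 to 0.69). The other LTA4H probe, at chr12:96415926-96415985, gave 0.48 at day 30 (unadjusted p = 0.126 by limma), 0.16 at day 5 and -0.07 at day 2. Against day 2, day 30 was higher by 0.47 for the main probe, in 5 of 5 pairs (SE 0.18, unadjusted p = 0.0364, adjusted p = 0.367 by limma).

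**Figure D2:**
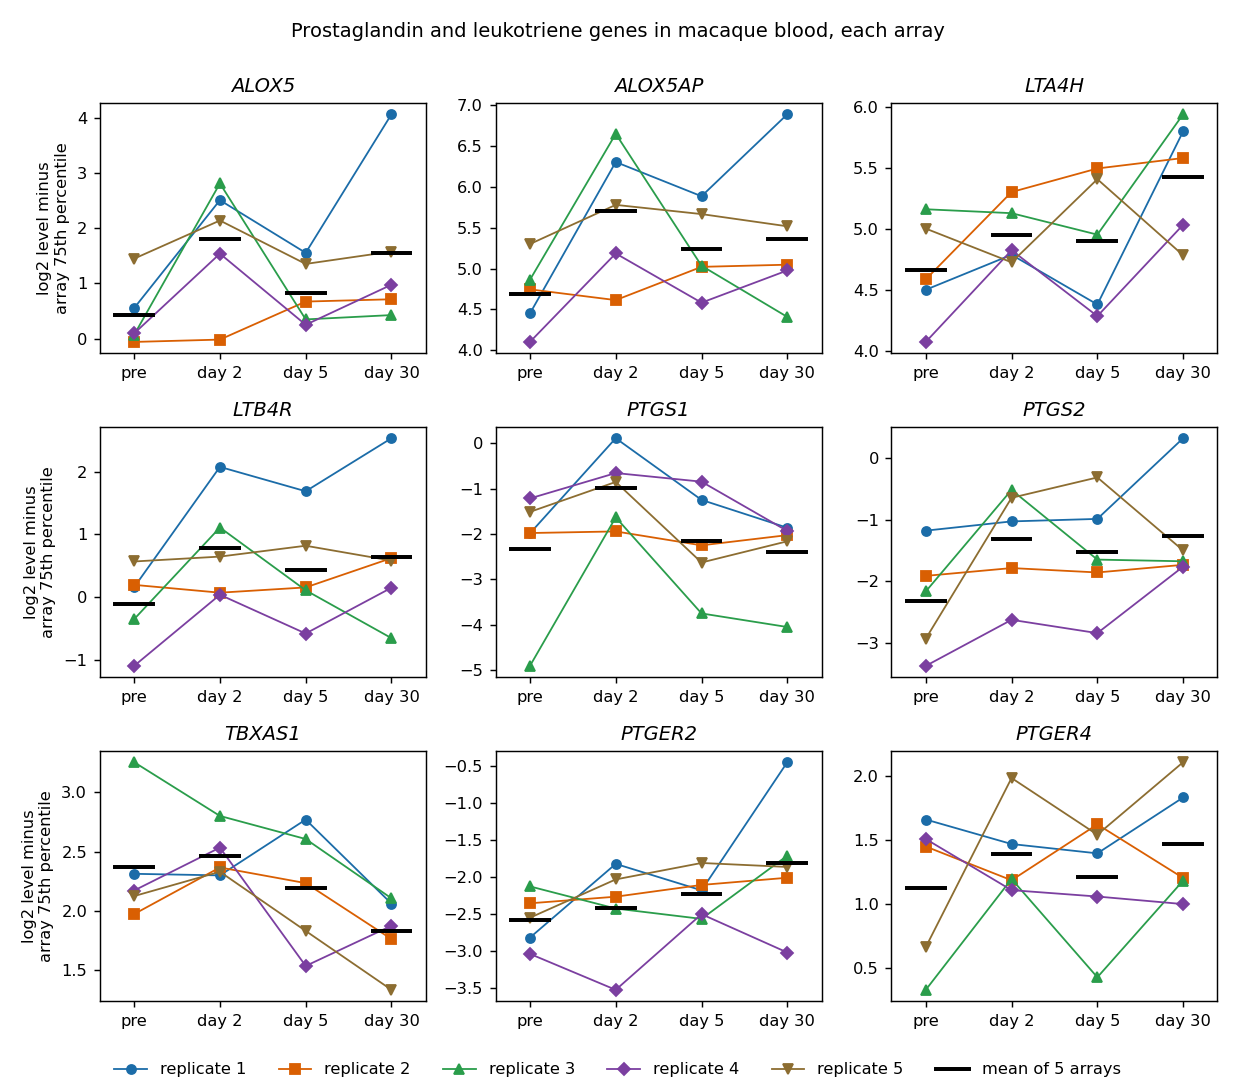
Log2 level minus the array's 75th percentile on the vertical axis of each panel, for the 9 measured genes before and 2, 5 and 30 days after irradiation. Each line joins the arrays of 1 replicate number and black bars are group means of 5 arrays. Replicate 1 is the highest day 30 array for ALOX5, ALOX5AP, LTB4R, PTGS2 and PTGER2, and PTGS1 is lowest in replicate 3 before irradiation and at days 5 and 30.

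PTGS1 encodes the constitutive cyclooxygenase, which platelets use to make thromboxane. Its log2 level was -1.99, -1.98, -4.91, -1.22 and -1.52 before irradiation, and replicate 3 was not well above background there. At day 2 it was 0.11, -1.95, -1.64, -0.66 and -0.86, all well above background, with 3 of 5 arrays above every pre-irradiation array. The log2 change was 1.33 (SE 0.44, n = 5 pairs, unadjusted p = 0.0176, adjusted p = 0.248 by limma), and without replicate 3 it was 0.84 (unadjusted p = 0.0348 by limma). At day 5 it was -1.25, -2.25, -3.75, -0.85 and -2.63, and at day 30 it was -1.87, -2.03, -4.05, -1.94 and -2.16. On both days replicate 3 was again not well above background. Those days differed from pre-irradiation by 0.18 (95% interval -0.56 to 0.91) and -0.09 (95% interval -0.66 to 0.49).

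Against day 2, PTGS1 was lower on its main probe in 5 of 5 pairs at both later times. The log2 difference was -1.15 at day 5 (SE 0.31, unadjusted p = 0.0063, adjusted p = 0.992 by limma) and -1.41 at day 30 (SE 0.32, unadjusted p = 0.00305, adjusted p = 0.307 by limma). Without replicate 3, which was not well above background on either later day, the differences were -0.91 and -1.16. Both comparisons share the day 2 arrays. The other PTGS1 probe, at chr9:125157536-125157595, was well above background on 12 of 20 arrays. It gave 0.76 at day 2, with 4 of 5 pairs higher (unadjusted p = 0.0457 by limma). Against day 2 it gave -0.69 at day 5 and -0.83 at day 30, each lower in 4 of 5 pairs (unadjusted p = 0.0999 and 0.0584 by limma). The directions were the same as for the main probe and the sizes smaller. Replicate 3 was not well above background on this probe in any group, and read -5.51 before irradiation and -4.55 at day 2.

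PTGS2 encodes the inducible cyclooxygenase of inflamed tissue and activated monocytes. Its log2 level was -1.18, -1.91, -2.16, -3.37 and -2.93 before irradiation. It was -1.03, -1.78, -0.52, -2.62 and -0.64 at day 2, -0.99, -1.85, -1.65, -2.84 and -0.31 at day 5, and 0.32, -1.73, -1.67, -1.76 and -1.50 at day 30. All 5 pairs were higher on each of the 3 days, and PTGS2 was the only member for which this held. The groups overlapped on each day, and the changes of replicate 2 were 0.13, 0.06 and 0.18. Over all probes, every pair was higher for 6.5% at day 2, 7% at day 5 and 8.36% at day 30. Its log2 change was 0.99 at day 2 (SE 0.33, unadjusted p = 0.0173, adjusted p = 0.248 by limma) and 0.78 at day 5 (SE 0.36, unadjusted p = 0.0635 by limma). At day 30 it was 1.04 (SE 0.25; 2.06-fold, 95% interval 1.38 to 3.08), with an unadjusted p of 0.00305 and an adjusted p of 0.149 by limma. At day 5, replicate 5 carried the largest pair change, 2.61, and the mean without it was 0.32.

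TBXAS1 encodes thromboxane synthase, which acts downstream of the cyclooxygenases. Its log2 level was 2.31, 1.97, 3.26, 2.17 and 2.13 before irradiation and 2.30, 2.37, 2.80, 2.53 and 2.33 at day 2. At day 30 it was 2.06, 1.76, 2.11, 1.87 and 1.33, so 3 of 5 arrays lay below every pre-irradiation array. Its log2 change was 0.10 at day 2 (95% interval -0.30 to 0.50), -0.17 at day 5 (95% interval -0.66 to 0.32) and -0.54 at day 30 (SE 0.20, unadjusted p = 0.0256, adjusted p = 0.231 by limma). All 5 pairs were lower at day 30, as were 9.51% of all probes. Without replicate 3, whose pre-irradiation array was the highest, the day 30 log2 change was -0.39. From day 2 to day 30 the difference was -0.64 (SE 0.15, unadjusted p = 0.00379, adjusted p = 0.328 by limma), again in 5 of 5 pairs.

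PTGER2 and PTGER4 encode prostaglandin E2 receptors that raise cyclic AMP. For PTGER2 the log2 level was -2.82, -2.36, -2.13, -3.04 and -2.55 before irradiation and -0.44, -2.01, -1.71, -3.02 and -1.86 at day 30. All pairs were higher, replicate 1 by 2.38 and replicate 4 by 0.02. The log2 change was 0.77 (SE 0.32, unadjusted p = 0.0435, adjusted p = 0.268 by limma), and without replicate 1 it was 0.37 (unadjusted p = 0.0811 by limma). At day 2 it was 0.16 (95% interval -0.38 to 0.71) and at day 5 it was 0.35 (95% interval -0.12 to 0.81). PTGER2 was higher at day 30 than at day 2 by 0.61 in 5 of 5 pairs (SE 0.20, unadjusted p = 0.0198, adjusted p = 0.359 by limma). PTGER4 lay between 0.33 and 2.10 on all arrays. Its log2 changes of 0.27, 0.09 and 0.34 at days 2, 5 and 30 had 95% intervals from -0.38 to 0.91, -0.40 to 0.57 and -0.32 to 1.01.

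The order of group means differed between members. ALOX5 went from 0.42 (SD 0.62, n = 5) before irradiation through day 5 (0.84, SD 0.59) and day 30 (1.55, SD 1.47) to day 2 (1.80, SD 1.12), and no neighbours in this order differed at an unadjusted p under 0.05. PTGS1 was highest at day 2 (-0.997, SD 0.82), while day 5 (-2.15, SD 1.15), pre-irradiation (-2.32, SD 1.48) and day 30 (-2.41, SD 0.93) lay close together. LTA4H was highest at day 30 (5.43, SD 0.50) and TBXAS1 lowest there (1.83, SD 0.31). At an unadjusted p under 0.05, 2 of 9 members were lower at day 5 than at day 2 (ALOX5 and PTGS1), against 1.63% of all probes. The log2 difference of ALOX5 was -0.96 there (SE 0.39, unadjusted p = 0.0387, adjusted p = 0.992 by limma), and without replicate 3 it was -0.59 (unadjusted p = 0.119 by limma). Between days 30 and 2, 2 of 9 were higher against 6.03% of all probes and 2 were lower against 6.95%. Between days 30 and 5 no member reached that level, while 8.31% of all probes did in either direction.

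Blood markers moved at the same times. Of 12 platelet genes, 10 were measured, and all 10 reached an unadjusted p under 0.005 at day 2, though none was called. Fewer than 552 of all 19961 probes did, since ALOX5 ranked 552 there with an unadjusted p of 0.00525 by limma. The median log2 change of the 10 platelet genes was 1.49 at day 2, 0.43 at day 5 and -0.22 at day 30. On single arrays the median level of the list ran from -0.29 to 1.52 before irradiation, 1.68 to 3.62 at day 2, 0.64 to 2.57 at day 5 and -0.04 to 1.35 at day 30. PTGS1 had changes of 2.10, 0.04, 3.28, 0.56 and 0.66 in replicates 1 to 5 at day 2, beside platelet list changes of 1.99, 0.34, 1.95, 1.35 and 1.60. The PTGS1 change of 3.28 in replicate 3 rests on a pre-irradiation signal that was not well above background. TBXAS1, which platelets also express, had changes of -0.01, 0.39, -0.45, 0.36 and 0.21 in the same pairs. Changes of the monocyte list in these pairs are given below, and which cells carry the TBXAS1 signal was not tested. GP1BA and GP6 of the platelet list were below the limit of 5 arrays. In whole blood, more cells of a type and more RNA per cell cannot be told apart.

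Of 11 neutrophil genes 9 were measured, MMP8 failing the limit and FCGR3B not named on the array. At an unadjusted p under 0.05, 8 of them were higher at day 2, 8 at day 5 and 7 at day 30, with median log2 changes of 1.03, 0.81 and 1.13. The list's median level ran from -0.31 to 2.52 before irradiation, 1.45 to 4.19 at day 2, 0.99 to 3.05 at day 5 and 1.57 to 4.86 at day 30, with the highest value in replicate 1 at day 30. In the pairs of day 2 the list changed by 0.97, 0.01, 2.26, 1.38 and 0.65, where ALOX5 changed by 1.96, 0.04, 2.75, 1.45 and 0.69. In the pairs of day 30 the list changed by 2.34, 0.76, 0.48, 2.18 and 0.50, where ALOX5 changed by 3.52, 0.77, 0.36, 0.88 and 0.13. At day 2 both were smallest in replicate 2 and largest in replicate 3. At day 30 both were largest in replicate 1, while replicate 4 was second for each. In the pairs of day 5 the list changed by 0.78, 0.58, 0.58, 1.30 and 0.57. ALOX5 changed there by 1.003, 0.73, 0.28, 0.16 and -0.096. The list was thus largest in replicate 4 at day 5, but ALOX5 was largest in replicate 1 and changed little in replicate 4. Both were smallest in replicate 5, although the list hardly differed between replicates 2, 3 and 5.

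Monocyte markers (8 of 9 measured) had median log2 changes of 0.62, 0.38 and 0.65 on the 3 days. In replicates 1 to 5 the monocyte list changed by 0.93, 0.54, 0.01, 1.03 and 0.47 at day 2. At day 5 it changed by 0.53, 0.43, -0.08, 0.19 and 0.69, and at day 30 by 1.14, 0.72, 0.25, 1.02 and 0.13. At day 30 the replicates fell in the same order as for ALOX5. At day 2 replicate 3 was smallest for the list and largest for ALOX5. At day 5 replicate 5 was largest for the list and smallest for ALOX5. T and NK cell markers (12 of 12) had medians of -0.65, -0.39 and -0.26 on the 3 days. Within the latter list KLRB1, a receptor of NK cells, was called lower at day 2 (log2 change -1.66, adjusted p = 0.0962 by limma). At day 30 KLRB1 and GZMK, a granzyme gene, had changes of 0.65 and 0.96 in 5 of 5 pairs (unadjusted p = 0.0044 and 0.00098 by limma). They were the only 2 of the 12 markers above 0 at day 30. Of the other T and NK cell markers, 4 were lower there at an unadjusted p under 0.05 by limma, with changes down to -0.78. KLRB1 and GZMK were both called higher at day 30 than at day 2, by 2.30 and 1.93 (adjusted p = 0.0959 by limma). B cell markers (7 of 9 measured) had medians of -0.53, -0.50 and -0.42, with 5 lower at an unadjusted p under 0.05 at day 2, 5 at day 5 and 3 at day 30. Erythroid genes (7 of 7) had -0.17, 0.07 and -0.85, with -2.09 for SLC4A1 at day 30 (unadjusted p = 0.0239 by limma), and eosinophil and basophil genes (7 of 10) had 0.14, -0.17 and -0.31. KLRB1, GZMK and SLC4A1 are named after their values were seen. Of 6 lung epithelial genes, SFTPC, SFTPB, SFTPA1 and EPCAM failed the limit. How far these marker shifts account for the values of the members was not tested.

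**Figure D3:**
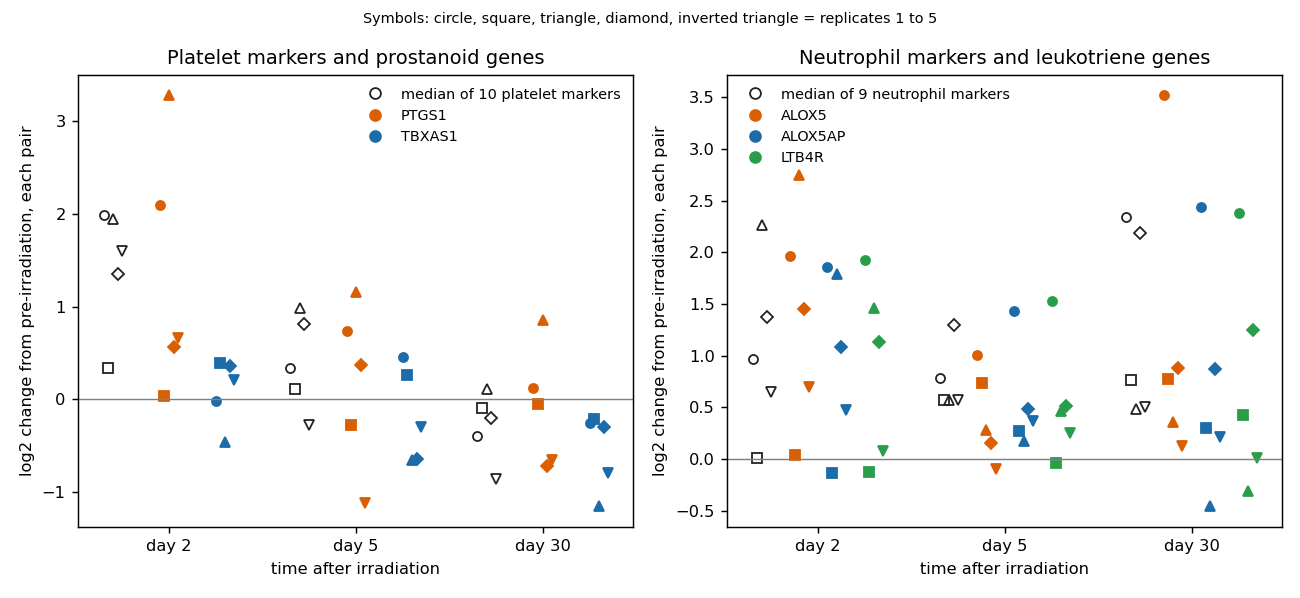
Log2 change of each pair from pre-irradiation on the vertical axis at days 2, 5 and 30. Open symbols are the median change of 10 platelet markers (left) and 9 neutrophil markers (right), filled symbols are single genes, and the symbol shape gives the replicate. PTGS1 and the platelet markers are highest at day 2, TBXAS1 stays near 0 there, and ALOX5, ALOX5AP and LTB4R are highest at day 30 in replicate 1.

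The members also differed in how alike they were over the 15 changes from pre-irradiation (5 pairs on 3 days). Likeness was measured as the root mean square of the difference between log2 changes, where a lower value is more alike, and it is given as a description. ALOX5AP and LTB4R lay 0.22 apart, ALOX5 and ALOX5AP 0.51, and ALOX5 and LTB4R 0.60, the 3 closest of all member pairs. LTA4H, of the same branch, lay 0.96 from ALOX5AP and 0.93 from LTB4R. PTGS1 and PTGS2, which catalyse the same step, lay 1.54 apart, and ALOX5 and TBXAS1 were the farthest pair at 1.58. The size of change over these 15 values was 1.40 for ALOX5, 1.24 for PTGS2, 1.18 for PTGS1, 1.09 for ALOX5AP and 1.08 for LTB4R, down to 0.51 for TBXAS1, where the median of all probes was 0.51. The PTGS1 value includes replicate 3, and without that replicate it was 0.82, so that PTGS1 ranked 6 rather than 3 among the 9 members, with LTB4R at 1.12 in its place.

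For the 4 members with the largest size of change, the 3 nearest other genes were named. Nearest to PTGS1, with replicate 3 included, were GP1BB (0.41) and C6orf25 (0.51), both coding for platelet surface proteins, and GNAZ (0.45), a G protein subunit. Nearest to ALOX5AP were PGD (0.21), an enzyme of the pentose phosphate pathway, NDEL1 (0.21) and the member LTB4R. Nearest to ALOX5 were SLCO4C1 (0.36), an organic anion transporter, VCL (0.38), which codes for vinculin, and VCAN (0.45), which codes for versican and is on the monocyte list. Nearest to PTGS2 were ZGLP1 (0.37), HTR5A (0.47) and RAB31 (0.52). The median of all probes lay 1.23 to 1.52 from these members.

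The rest of the pathway was taken from a list of 56 genes by role, of which 55 were on the array and 43 were measured. None was called. At an unadjusted p under 0.05, 14 were higher and 2 lower at day 2, 11 higher and 1 lower at day 5, and 6 higher and 5 lower at day 30. Over all probes, 8.91% were higher and 5.92% lower at day 2, 7.2% and 4.15% at day 5, and 8.58% and 8.97% at day 30. Their median log2 changes were 0.12, 0.19 and 0.02. The genes that reached an unadjusted p under 0.005 in at least 1 comparison follow by role, and all p-values for them are from limma.

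Among the phospholipases that free arachidonic acid or cleave related lipids, PLA2G2A, a secreted phospholipase, was higher by 0.92, 0.64 and 0.85 on the log2 scale at days 2, 5 and 30, in 5 of 5 pairs each time (unadjusted p = 0.0145, 0.00280 and 0.00571). PLA2G7, which inactivates platelet-activating factor, was higher by 0.62, 0.57 and 1.12, also in every pair (unadjusted p = 0.0310, 0.0193 and 0.00424). Among leukotriene enzymes, LTC4S, which makes leukotriene C4, had a log2 difference of -1.59 between days 30 and 5 (unadjusted p = 0.00159), but its probe was well above background on only 6 of 20 arrays. None of the 6 leukotriene enzymes beside the members was higher at an unadjusted p under 0.05 on any day, and 3 were lower at day 30 (LTC4S, with GGT1 and DPEP3, which are named after their values were seen).

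OXER1, a receptor for oxidized eicosanoids, was higher by 1.09 at day 2 (5 of 5 pairs, unadjusted p = 0.00172) and 1.04 at day 30 (4 of 5 pairs, unadjusted p = 0.00513). AKR1C3, which reduces prostaglandins, was higher by 0.53, 1.003 and 1.33 on the 3 days, in every pair (unadjusted p = 0.0128, 0.0147 and 0.00294). PTGDR, a prostaglandin D2 receptor found on lymphocytes, had log2 changes of -0.93 at day 2 (unadjusted p = 0.00110) and -0.81 at day 5 (unadjusted p = 0.00646), in no pair higher. It lay 0.89 higher at day 30 than at day 2 (5 of 5 pairs, unadjusted p = 0.00204). PTGIR, the prostacyclin receptor, which restrains platelets, was higher by 0.77 at day 2 and 0.67 at day 5 (unadjusted p = 0.0156 and 0.00298).

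CYP4F3 and CYP4F2, which inactivate leukotriene B4 by hydroxylation, were higher by 1.12 and 1.30 at day 2, 0.79 and 0.90 at day 5, and 1.19 and 1.35 at day 30. Their lowest unadjusted p-values were 0.00118 and 0.00188, at day 5. These genes are close paralogs, and 1 transcript may reach both probes.

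**Figure D4:**
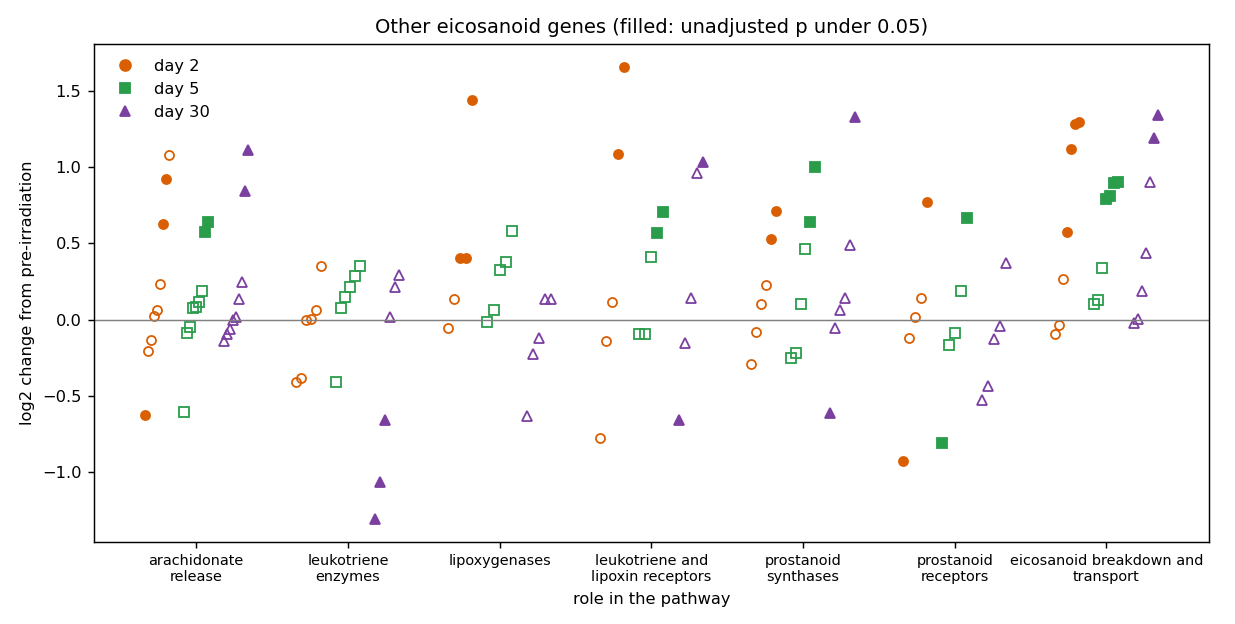
Log2 change from pre-irradiation on the vertical axis for the 43 other measured genes of the pathway, by role, at day 2 (circles), day 5 (squares) and day 30 (triangles), with 1 point a gene. Filled points have an unadjusted p under 0.05, and these lie above 0 in the breakdown and transport group and below 0 at day 30 among the leukotriene enzymes.

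With normexp background correction the log2 change at day 2 was smaller for the 5 members with an unadjusted p under 0.05 there, at 0.79 for ALOX5, 0.43 for ALOX5AP, 0.38 for LTB4R, 0.60 for PTGS1 and 0.60 for PTGS2, and ALOX5AP and LTB4R then missed an unadjusted p of 0.05 in limma (0.0906 and 0.0872). Without the replicate block, 2 of 9 members had an unadjusted p under 0.05 at day 2 (ALOX5 and ALOX5AP), 0 at day 5 and 1 at day 30 (LTA4H).

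Each slide held 1 array of each group in a fixed position, so position and group cannot be told apart. The share of spots well above background ran from 50.9% to 67.3%, the top value belonging to replicate 3 of day 5, with 58.8% for the next array. The number of arrays limits the precision. Whether the arrays of 1 number come from 1 animal rests on the methods, so p-values measure the spread between these pairs.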

How the data were processed

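RNA from whole blood was hybridized with Cy3 to 20 one-color Agilent Whole Human Genome 4X44K v2 arrays, 5 in each of 4 groups. The deposited scanner files come from Feature Extraction (12.0.2.2 per the file headers, 10.7 per the submitters' processing notes). Their processed intensity had its background removed by the authors, without scaling arrays to each other. A deposited table of log2 values for 5884 probes holds the same signals: for probes with a single spot, it differs from them by a constant of the array (tolerance 0.001).

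Control and outlier spots were left out, spots of 1 probe were averaged as log2 intensity, and the array's 75th percentile was subtracted. Probes well above background on at least 5 of 20 arrays with at least 4 of 5 pairs were tested with limma 3.58.1 (R 4.3.3), using the arrays of the 2 groups compared and a block for the replicate number, since the methods state that comparisons were paired by animal. Arrays of the same number deviated together (median r 0.28 over 30 array pairs, above 0.1 in 25 of them, against a median of -0.07 for other numbers). Where a gene had more than 1 measured probe, the brightest among those measured on the most arrays was its main probe.

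All members are named by their main probe. Other pathway genes are named at an unadjusted p under 0.005 in any comparison, and for the 4 members with the largest changes the 3 nearest genes. Members and lists were chosen with earlier results of these data known. The test was checked on simulated data for day 2 against pre-irradiation, with normal noise drawn separately for each probe. There it called 25 of 50 log2 changes of 1 and 27 of 50 of -1. For changes of 2 and -2 it called 46 and 44 of 50, and of 19754 unchanged probes it called 9. The adjusted p depends on how many probes change, and 200 were changed here, so these shares do not carry over to the members. In the data 11 probes were called at day 2. None of the 10 measured platelet genes was, with log2 changes of 1.00 to 1.95 there. Alternatives were scaling by quantiles or by the median, normexp background correction (offset 50), both other filters on dim probes, outlier spots kept, the log2 table of the authors, a fit without the block, all arrays in 1 fit, the slide as a block, and each replicate left out. Figures were drawn with Python 3.11.15 and matplotlib 3.10.9. Blood counts and qRT-PCR values were not used here.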

Additional observations from a re-analysis of the deposited data

Results flagged for a closer look

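Gaps within groups were examined for the 9 measured genes in 4 groups, 36 sets of 5 arrays in all, of which about 1 in 20 passes Dixon's limit of 0.71 by chance. In 4 sets an end array stood apart. PTGS1 in replicate 3 read -4.91 before irradiation and -4.05 at day 30, below the other arrays, and was not well above background on either. PTGS2 in replicate 1 at day 30 read 0.32, above the others. TBXAS1 in replicate 3 before irradiation read 3.26, above the others.

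Signal was also seen in 2 probes that were not tested, neither of which was well above background on any pre-irradiation array. The HPGD probe was well above background on 1 of the later arrays (replicate 2 at day 30), and the other ALOX5 probe on 1 (replicate 3 at day 5, the array with the most spots above background).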

How the results depend on the processing

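Of 486 values of single genes under the alternatives, 466 kept their direction and side of the threshold, 8 came to be called and 12 changed sign. As no member was called in the main fit, the 466 had only to keep their sign and stay uncalled, whatever their size. The 12 all belong to log2 changes under 0.3 in size, none with an unadjusted p under 0.05. With normexp correction the day 2 change was -0.26 for LTA4H, -0.020 for PTGER4 and -0.30 for TBXAS1, and the day 30 change of PTGS1 was 0.075. The day 5 change of PTGS1 was -0.17 with quantile normalization and -0.073 with the deposited log2 values, and that of PTGER4 was -0.043 with median scaling. With each replicate left out in turn, PTGER2 at day 2 ranged from -0.045 to 0.33, PTGS1 from -0.070 to 0.50 at day 5 and -0.32 to 0.072 at day 30, and PTGER4 at day 5 from -0.11 to 0.22. The cause was not tested.

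Calls of members came from 1 gene each with the deposited log2 values at day 2 (ALOX5) and at day 30 (PTGS2), and 1 at day 30 (PTGS2) with the filter that asks for signal above background on all 20 arrays, where fewer probes were tested. Normexp correction gave 2 at day 30 (PTGS2 and TBXAS1). Leaving out a replicate gave 0 to 2 at day 2 and 0 to 1 between days 30 and 2, the highest without replicate 2 (ALOX5 and ALOX5AP, then PTGS1).

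Without the replicate block, members at an unadjusted p under 0.05 numbered 2, 0 and 1 at days 2, 5 and 30, 0 between days 5 and 2 and 2 between days 30 and 2. All probes called then numbered 0 at day 2, 0 at day 30 and 5 between days 30 and 2. With the slide as a block members numbered 3 at day 2 and 0 at day 5. Normexp gave 3 members at day 2, 1 between days 5 and 2, 2 between days 30 and 5 and 2 between days 30 and 2. At day 5 quantile normalization and no filter gave 1 each, median scaling and the deposited values 0, all 20 arrays in 1 fit 1, and the filter on all 20 arrays 4. Between days 5 and 2, no filter, the filter on all 20 arrays and 1 fit gave 1 each. Between days 30 and 5, median scaling and 1 fit gave 1 each, and between days 30 and 2 the deposited values, which hold no TBXAS1 probe, gave 2. Leaving out a replicate gave 3 to 5 at day 2, 0 to 3 at day 5, 3 to 5 at day 30, 1 to 3 between days 5 and 2, 0 to 1 between days 30 and 5 and 2 to 4 between days 30 and 2.

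All probes called at day 2 (11) numbered 0 with quantile normalization, 0 with normexp, 5 with no filter, 209 with the filter on all 20 arrays, 327 with the deposited values, 368 in 1 fit, 1 with the slide as a block, and 0 to 681 with a replicate left out, the highest without replicate 2. At day 5 (0) median scaling gave 9. At day 30 (4) they numbered 0 with quantile normalization, median scaling, no filter or the slide as a block, 900 with normexp, 645 with the filter on all 20 arrays, 334 with the deposited values, 238 in 1 fit, and 0 to 0 with a replicate left out. Between days 30 and 5 (0) 1 fit gave 1, and 0 to 2 came with a replicate left out. Between days 30 and 2 (11) normexp gave 5, no filter 0, the filter on all 20 arrays 26, the deposited values 57, 1 fit 178, the slide as a block 0, and a replicate left out 0 to 67, the highest without replicate 2. The median ratio of signal to local background per array lay from 1.68 to 2.46. After the data were seen, replicate 3 was also left out of the size of change of PTGS1, which went from 1.18 to 0.82.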
